A study of Mus musculus with 4 samples.

Results

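The autophagy machinery is described here by 42 genes chosen by name, from the kinases that start autophagosome formation to the proteins that select cargo and fuse the vesicle with the lysosome. All 42 are among the 31017 gene names of the deposited count tables, and all 42 passed the filter on low counts, as did 13241 genes in all. Bulk RNA sequencing had been done on 4 libraries of pancreatic beta cells, the insulin-secreting cells of the islets of Langerhans. The cells came from wild type male C57BL/6J mice aged 10 weeks, whose islets were kept in culture overnight, dissociated and sorted by flow cytometry. Sorting on CD63, a tetraspanin of late endosomes, lysosomes and secretory granules, gave CD63 high and CD63 low cells, with 2 libraries of each. The comparison addressed how transcript levels differ between beta cells with much and with little CD63. Whether the libraries of a group stem from different mice or sorting runs is not in the labels, and the p-values cover only the spread between these libraries. Values are TMM-scaled CPM, the usual depth-corrected count of RNA sequencing, and 4 values written as A and B against C and D are CD63 high replicates 1 and 2 against CD63 low replicates 1 and 2. Differences on the log2 scale are CD63 high minus CD63 low.

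Autophagy encloses cytoplasm in a double membrane, the autophagosome, which fuses with a lysosome so that its content is broken down. The ULK1 kinase complex and a class III PI3 kinase complex start the membrane, which grows while ATG9 and ATG2 supply lipid, and small ubiquitin-like proteins of the ATG8 family are attached to it by a conjugation cascade. Cargo receptors bind both cargo and ATG8 proteins. Beta cells use the pathway to remove damaged mitochondria and spare secretory granules, and loss of autophagy genes in mouse beta cells is known to impair insulin secretion. Much of autophagy is regulated on proteins rather than on transcripts, and only transcripts were measured here.

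Total counts were 29249270 to 35003307 per library, so 1 CPM before scaling stood for 29.2 to 35.0 counts. The 10 beta cell markers examined (Ins1, Ins2, Iapp, Pdx1, Nkx6-1, Mafa, Slc2a2, Ucn3, G6pc2 and Slc30a8) took 537654 to 622133 CPM together (marker sums use total counts), and none was at 0. Summed markers of other islet cells, acinar and duct cells and macrophages were higher in both CD63 high libraries. The 8 alpha cell markers summed to 5562 and 5771 CPM in CD63 high replicates 1 and 2 against 423 and 565 CPM in CD63 low replicates 1 and 2. The 13 macrophage markers summed to 197 and 680 against 28.5 and 52.3 CPM, the 14 acinar markers to 1033 and 1451 against 24.5 and 369 CPM, and the 7 duct markers to 3116 and 1720 against 994 and 1155 CPM. The duct difference came mostly from Spp1, at 2007 and 913 against 129 and 118 TMM-scaled CPM. Krt7 was lower in both CD63 high libraries (510 and 445 against 558 and 551), while Krt18, Krt19 and Epcam were higher in both. The 4 delta cell markers summed to 465 and 842 against 67.6 and 48.7 CPM, and the 3 gamma cell markers to 2403 and 3894 against 515 and 310.0 CPM. Of the marker lists, edgeR called 2 of 7 tested alpha, 3 of 3 delta, 3 of 3 gamma, 12 of 13 macrophage, 6 of 13 acinar and 1 of 5 duct genes higher in CD63 high cells, and 3 of 10 beta cell genes lower. Endothelial markers (7 genes) stayed at or below 4.21 CPM and stellate and fibroblast markers (8 genes) at or below 6.22 CPM in sum. Cftr of duct cells, Cdh5 and Cldn5 of endothelium and Pdgfra of fibroblasts had no count in any library. The part of these other cells in the autophagy values below was not tested. In bulk libraries, fewer cells of a type and less RNA per cell cannot be told apart.

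No autophagy gene passed the test between CD63 high and CD63 low cells. With the quasi-likelihood test of edgeR, adjusted by Benjamini-Hochberg over all tested genes, 0 of 42 had an adjusted p under 0.05, where 2.79% of all tested genes did (2.50% higher and 0.287% lower in CD63 high cells). The adjusted p ranged from 0.0546 for Wipi1 to 1.00 for Gabarapl1. At an unadjusted p under 0.05 stood 8 of 42 (19.0%), against 14.9% of all tested genes. Of these, 2 (Wipi1 and Gabarap) had higher values in CD63 high cells, against a background of 8.95%, and 6 (Uvrag, Pink1, Ulk2, Ambra1, Atg13 and Ulk1) had lower ones, against 5.96%. DESeq2 called 1 of the 42, Wipi1, and limma-voom called none. Over all genes DESeq2 also called more than edgeR, in both directions (counts are given below under processing). Of the 15 alternative analyses, the one without CD63 low replicate 1 called the most, 1 gene higher (Wipi1) and 4 lower (Uvrag, Pik3r4, Nbr1 and Calcoco1). That analysis also called more genes in all, 3.66% of its 13980 tested genes higher and 1.84% lower.

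The fold changes were small on the whole. Log2 fold changes, CD63 high over CD63 low, ran from -0.92 (Uvrag) to 0.98 (Wipi1), with a median of -0.18, where the median over all tested genes was -0.01. They lay below 0 for 27 of 42 genes (64.3%), against 51.4% of all tested genes. The median was -0.25 to -0.06 over the 15 alternatives. The 95% interval of the log2 fold change stayed within a 2-fold change in either direction for 26 of 42 genes. The groups did not overlap for 17 of 42 genes (40.5%), against 46.0% of all tested genes. In 6 of these both CD63 high libraries were above both CD63 low libraries (background 23.8%), and in 11 they were below (background 22.2%). The sign of the log2 fold change was the same in all 15 alternatives for 21 of the 42 genes, and it changed in 1 or more for the other 21.

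**Figure D1:**
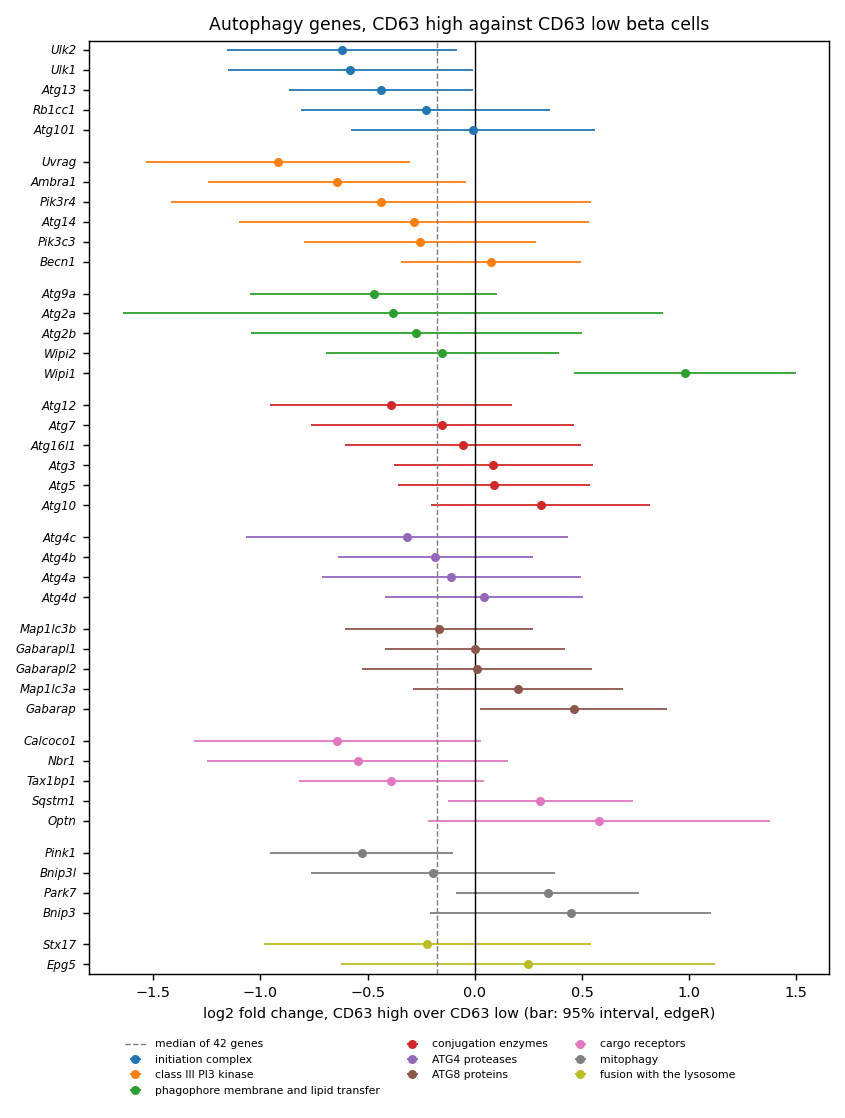
Log2 fold change of each of the 42 autophagy genes, CD63 high over CD63 low (x axis), with its 95% interval derived from the edgeR test (bars), ordered by fold change within 9 role groups (colours). The dashed line marks the median of -0.18, and the points run from -0.92 for Uvrag to 0.98 for Wipi1.

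Levels within the pathway spread over a wide range. On the scale of CPM per kilobase of exon, averaged over the 4 libraries, Sqstm1 stood at 216 and Gabarap at 214, followed by Park7 at 105 and Gabarapl1 at 63.7. These encode the receptor p62, an ATG8 protein, the redox-sensitive protein DJ-1 and another ATG8 protein. Sqstm1 and Gabarap did not differ in level beyond the spread of their libraries (177 to 253 and 162 to 258). At the other end stood Epg5, a tether of autophagosomes to late endosomes, at 0.497, and the lipid transfer genes Atg2a and Atg2b at 0.799 and 0.807. Exon length here covers the exons of all annotated isoforms, which lowers the value of genes with long rarely used exons. All 42 genes had at least 72 counts in every library.

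**Figure D2:**
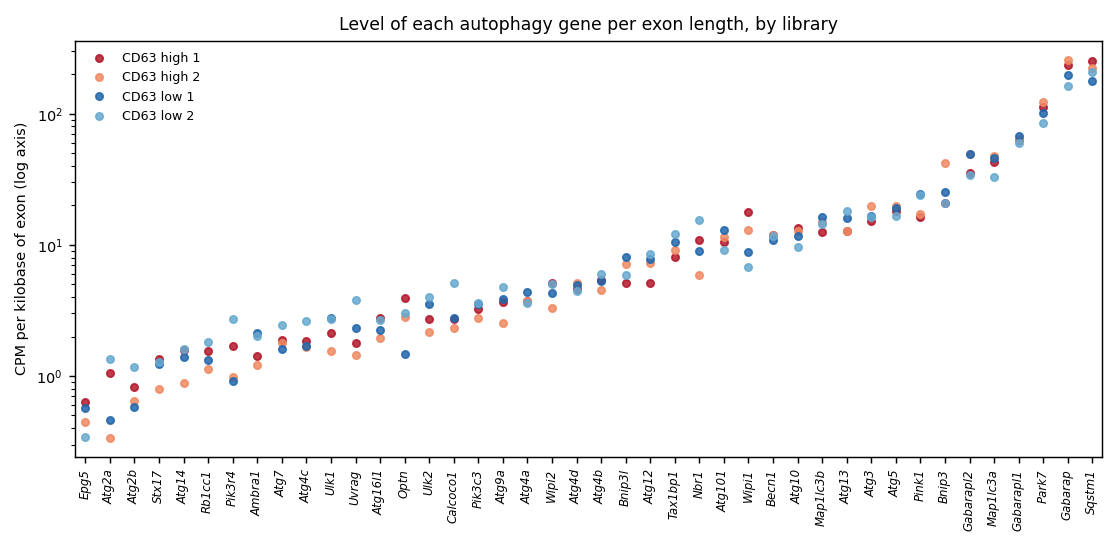
Level of each autophagy gene in CPM per kilobase of exon (y axis, log scale), ordered by mean level (x axis), with 1 point per library. The order runs from Epg5 at 0.497 to Sqstm1 at 216, and the 4 libraries of a gene lie close together relative to that range.

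The phagophore membrane genes held the gene nearest to the threshold. Wipi1 encodes a protein that binds the lipid PI3P on the forming membrane (chromosome 11, 109573331 to 109611967, minus strand, mm10). It stood at 78.4 and 57.0 CPM in CD63 high replicates 1 and 2 and at 38.9 and 29.8 CPM in CD63 low replicates 1 and 2. Both CD63 high libraries were above both CD63 low libraries, a ratio of 1.97 (log2 fold change 0.98, SE 0.23, 95% interval 0.46 to 1.50). The edgeR adjusted p was 0.0546, which missed the threshold. Over the 15 alternatives it was 0.00129 to 0.292, the direction was the same in all 15, and 9 called the gene. Leaving out CD63 high replicate 1 gave the smallest difference (log2 fold change 0.73), and leaving out CD63 high replicate 2 the largest (1.19). The summed duct markers, mostly through Spp1, were also highest in CD63 high replicate 1. Those of macrophages and of acinar, alpha, delta and gamma cells were highest in CD63 high replicate 2. A link between these cells and the Wipi1 values was not tested. The other 4 genes of this group, Wipi2, Atg9a, Atg2a and Atg2b, had log2 fold changes of -0.47 to -0.15, and their adjusted p was at least 0.450. Wipi2, the relative of Wipi1 that recruits the conjugation machinery, stood at 54.1 and 34.5 against 45.2 and 53.3 CPM, and its groups overlapped.

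The initiation complex had values below 0 throughout, none past the threshold. Its 5 genes had a median log2 fold change of -0.44, and 3 had an unadjusted p under 0.05 in edgeR. Of all tested genes, 5.96% were lower in CD63 high cells at that threshold, and 22.2% were lower without overlap between groups. Ulk1 and Ulk2 encode the related kinases that start autophagy when nutrients are short. Ulk2 stood at 16.4 and 13.0 against 21.1 and 24.0 CPM (log2 difference -0.62, SE 0.24, edgeR adjusted p 0.255). Ulk1 stood at 13.8 and 10.1 against 18.0 and 17.7 CPM (-0.58, SE 0.26, edgeR adjusted p 0.327). Both kinase genes were lower in each CD63 high library than in each CD63 low library. Atg13, an adaptor that links the kinase to its scaffold, stood at 55.5 and 55.3 against 70.3 and 79.7 CPM (-0.44, SE 0.19, edgeR adjusted p 0.324), again without overlap. The scaffold gene Rb1cc1, which encodes FIP200, and Atg101, which encodes a partner of ATG13, had overlapping groups and log2 fold changes of -0.23 and -0.01. The sign held in 14 of the 15 alternatives for Rb1cc1 and in 8 for Atg101, and in all 15 for the other 3 genes.

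In the class III PI3 kinase complex, which makes the lipid PI3P, the largest difference was that of Uvrag. UVRAG joins the form of this complex that acts in endosome and autophagosome maturation (chromosome 7, 98885021 to 99141141, minus strand, mm10). Uvrag stood at 16.2 and 13.1 against 21.1 and 34.1 CPM, without overlap, a 1.89-fold lower level in CD63 high cells. Its log2 fold change was -0.92 (SE 0.28, 95% interval -1.53 to -0.30) and the edgeR adjusted p 0.125. CD63 low replicate 2 held the most, and without it the log2 fold change was -0.51 (adjusted p 0.562). Without CD63 low replicate 1 it was -1.23 (adjusted p 0.00530), and over the 15 alternatives the adjusted p was 0.00530 to 0.562. Of the exonic bases of Uvrag, 17.6% also belong to the gene name Gm45187. Ambra1, a regulator of Beclin 1, stood at 8.71 and 7.48 against 13.1 and 12.2 CPM (log2 difference -0.64, SE 0.27, edgeR adjusted p 0.299), without overlap. Becn1, which encodes Beclin 1 itself, stood at 84.0 and 83.8 against 76.3 and 83.0 CPM. Its log2 fold change was 0.07 with a 95% interval of -0.34 to 0.49, and 43.9% of its exonic bases are shared with Cntd1. The lipid kinase gene Pik3c3, its regulatory subunit gene Pik3r4 and Atg14, which directs the complex to autophagosome formation, had log2 fold changes of -0.44 to -0.25 and adjusted p of 0.711 to 0.805. That of Pik3r4 ran from -1.02 to 0.56 over the 15 alternatives, with the other sign in 1, and edgeR called it without CD63 low replicate 1 (adjusted p 0.0499).

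**Figure D3:**
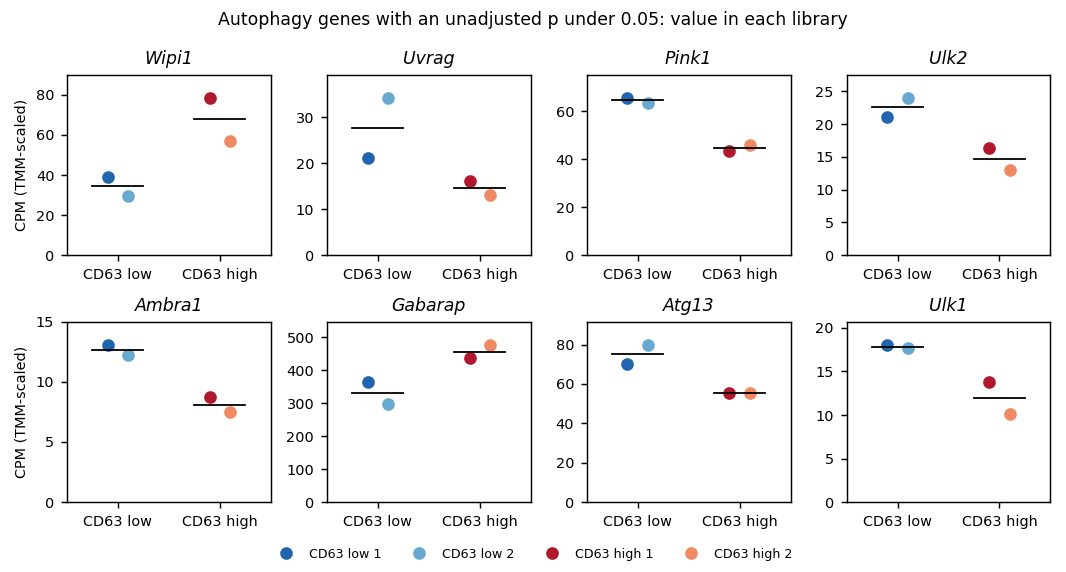
TMM-scaled CPM (y axis, from 0) of the 8 genes with an unadjusted p under 0.05 in each library (points), by group, with the group mean (line). Wipi1 and Gabarap have both CD63 high libraries above both CD63 low libraries, and the other 6 have both below.

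Sequence near the RefSeq start was read for the genes at the extremes of the range. A RefSeq table of promoters (build GRCm38.p6, 250 bases before to 50 bases after each start) had entries for 34 of the 42 genes under their symbols, and Rb1cc1, Becn1, Pik3c3, Atg12, Atg16l1, Map1lc3a, Bnip3l and Epg5 were not analysed here. Wipi1 and Uvrag are shown because they had the largest differences in each direction. Each stretch is the 150 bases nearest to the start that hold no exonic base of the deposited annotation, written 5′ to 3′ on the gene's strand. The Wipi1 stretch is chr11:109611433-109611582 (minus strand), which ends 43 bases before the RefSeq start used. It lies inside the gene as the deposited tables span it, between exons and 385 bases past the first base of that span. The Uvrag stretch is chr7:99141145-99141294 (minus strand), outside the deposited span.
Wipi1: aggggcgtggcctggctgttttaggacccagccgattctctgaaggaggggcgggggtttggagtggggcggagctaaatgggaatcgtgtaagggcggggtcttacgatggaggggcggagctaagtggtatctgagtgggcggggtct
Uvrag: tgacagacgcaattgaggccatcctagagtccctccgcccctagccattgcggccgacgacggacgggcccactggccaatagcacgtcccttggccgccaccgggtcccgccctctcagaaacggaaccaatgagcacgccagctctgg
Both stretches are rich in G and C (62.0% and 65.3%). Neither holds CACGTG, the core of the element bound by TFEB, a transcription factor of lysosome and autophagy genes.

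CACGTG reads the same on both strands, and it was found in 5 of 38 promoters of autophagy genes (13.2%), against 7.15% of all 32851 promoters of the table. The 5 genes were Atg3, Atg5, Atg7, Atg14 and Bnip3. The longer form GTCACGTG, searched on both strands and always overlapping the shorter one, was in 3 of 38 (7.89%; Atg3, Atg7 and Atg14) against 2.25% of all promoters. The element of antioxidant genes, TGACNNNGC on either strand, was in 4 of 38 (10.5%) against 12.4%, and the forkhead motif TGTTTAC on either strand was in 0 of 38 against 3.65%. The surroundings of CACGTG, in capitals, are shown for the 4 genes where it lies before the start, because 3 of them form the conjugation cascade described next. They are chr16:45158715-45158783 for Atg3, chr10:44268305-44268338 for Atg5 and chr6:114670944-114670989 for Atg7 (plus strand), and chr7:138909589-138909634 for Bnip3 (minus strand).
Atg3: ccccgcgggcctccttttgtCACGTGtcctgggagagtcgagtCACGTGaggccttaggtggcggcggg
Atg5: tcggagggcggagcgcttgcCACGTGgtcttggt
Atg7: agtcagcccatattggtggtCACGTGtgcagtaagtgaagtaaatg
Bnip3: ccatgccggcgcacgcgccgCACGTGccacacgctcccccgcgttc
The log2 fold changes of these 4 genes were 0.09, 0.09, -0.15 and 0.45, and their edgeR adjusted p was 0.547 to 0.909. The Atg7 window lies before a RefSeq start inside the gene as the deposited tables span it. A match is a description of the letters and does not show binding.

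The conjugation enzymes differed little between the groups. ATG7 and ATG10 activate and transfer ATG12 to ATG5, ATG16L1 joins that pair, and ATG3 passes the ATG8 proteins to the membrane lipid. The 6 genes had log2 fold changes of -0.39 to 0.31 with a median of 0.02, and all 6 intervals stayed within a 2-fold change. Atg12 had the smallest p of the group. It stood at 12.9 and 18.2 against 19.4 and 21.4 CPM (log2 difference -0.39, SE 0.26, edgeR adjusted p 0.538). Atg5 was at 42.9 and 46.1 against 44.8 and 38.9 CPM, and its interval of -0.36 to 0.54 was the narrowest of the 6. Atg3 stood at 47.7 and 62.6 against 52.6 and 51.2 CPM, also with overlapping groups. Atg10 was slightly above CD63 low in both CD63 high libraries (23.0 and 22.1 against 19.9 and 16.5 CPM; log2 fold change 0.31). The ATG4 proteases, which trim the ATG8 proteins before conjugation and release them from the membrane afterwards, overlapped in all 4 genes. Atg4c, the one with the smallest p, stood at 6.16 and 5.53 against 5.70 and 8.83 CPM (-0.32, SE 0.34, edgeR adjusted p 0.748), and the others had log2 fold changes of -0.18 to 0.04.

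Among the 5 ATG8 genes, whose proteins mark the autophagosome and bind the receptors, only Gabarap had groups that did not overlap. Gabarap (chromosome 11, 69991143 to 69994951, plus strand, mm10) stood at 437 and 476 against 364 and 299 CPM. CD63 high cells held 1.38 times the level of CD63 low cells (log2 fold change 0.46, SE 0.20, 95% interval 0.03 to 0.90), with an edgeR adjusted p of 0.303 that did not pass in any of the 15 alternatives (0.0540 to 0.783). An offset for exon length, fitted to each library, lowered the log2 fold change to 0.23. Gabarapl1 had the flattest profile of the 42 genes by p, at 127 and 130 against 137 and 120 CPM (0.00, SE 0.19). Gabarapl2 varied as much within as between groups (81.8 and 115 against 115 and 79.8 CPM; 0.01, SE 0.24). The genes of LC3, the protein most used to mark autophagosomes, also overlapped between groups. Map1lc3a stood at 50.7 and 56.4 against 54.3 and 38.8 CPM (0.20, SE 0.22, edgeR adjusted p 0.755) and Map1lc3b at 94.1 and 112 against 123 and 109 CPM (-0.17, SE 0.20, edgeR adjusted p 0.775). The 95% intervals of Gabarapl1 (-0.42 to 0.42), Gabarapl2 (-0.53 to 0.55), Map1lc3a (-0.29 to 0.69) and Map1lc3b (-0.61 to 0.27) each stayed within a 2-fold change.

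As shares of the summed ATG8 level in CPM per kilobase of exon, which do not depend on library scaling, Gabarap made up 60.6% and 59.4% against 52.4% and 53.4%. The groups did not overlap. Map1lc3b made up 3.20% and 3.44% against 4.34% and 4.78%, and Gabarapl1 16.2% and 14.8% against 18.0% and 19.7%, both lower in each CD63 high library. A larger share of Gabarap lowers the other shares by arithmetic, and the levels of Map1lc3b and Gabarapl1 themselves overlapped between groups. The shares of Map1lc3a (11.0% and 11.0% against 12.2% and 10.8%) and Gabarapl2 (9.01% and 11.3% against 13.2% and 11.3%) overlapped. A permutation of 2 against 2 libraries cannot go below an exact two-sided p of 0.333, so these shares are descriptions. With the length of the principal transcript of GENCODE M21 in place of all exons, Gabarap held 61.6% and 60.0% against 52.8% and 53.6%, and Map1lc3b 7.08% and 7.56% against 9.52% and 10.4%.

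**Figure D4:**
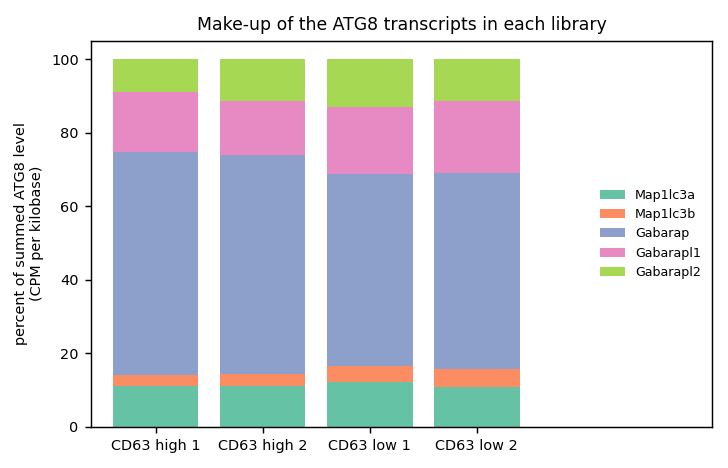
Share of each of the 5 ATG8 genes in the summed ATG8 level (y axis, percent, from CPM per kilobase of exon) in each library (bars). Gabarap takes the most in every library, with 60.6% and 59.4% for CD63 high against 52.4% and 53.4% for CD63 low.

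The cargo receptors differed in direction among themselves, and none passed. Sqstm1, which encodes p62, the receptor of ubiquitin-tagged protein (chromosome 11, 50199366 to 50210827, minus strand, mm10), stood at 847 and 754 against 594 and 702 CPM. Both CD63 high libraries were above both CD63 low libraries, a difference that did not pass the test (log2 fold change 0.31, SE 0.20, 95% interval -0.13 to 0.74, edgeR adjusted p 0.530). Of its exonic bases, 17.3% are shared with Mrnip. Optn, the gene of optineurin, a receptor in mitophagy, stood at 14.6 and 10.5 against 5.50 and 11.3 CPM, with overlap (0.58, SE 0.36, edgeR adjusted p 0.513). Without CD63 low replicate 1 its log2 fold change was 0.15, and without CD63 low replicate 2 it was 1.21.

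The other receptors had values below 0. Tax1bp1, a receptor of ubiquitin-tagged aggregates, stood at 81.1 and 90.5 against 104 and 120 CPM, without overlap (log2 fold change -0.39, SE 0.20, edgeR adjusted p 0.395). Nbr1, which acts together with p62, stood at 74.7 and 40.4 against 61.9 and 106 CPM, with overlap (-0.55, SE 0.32, edgeR adjusted p 0.477). Calcoco1, a receptor for the endoplasmic reticulum, stood at 15.5 and 13.3 against 15.8 and 29.1 CPM (-0.64, SE 0.30, edgeR adjusted p 0.361), where CD63 low replicate 1 was near the CD63 high libraries. Both turned on single libraries. Their log2 fold changes were -0.89 and -1.02 without CD63 low replicate 1 (adjusted p 0.0368 and 0.0296) and -0.09 and -0.11 without CD63 low replicate 2 (0.966 and 0.961). Nbr1 also moved to -0.17 without CD63 high replicate 2 (edgeR adjusted p 0.961).

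The genes of mitophagy, the removal of mitochondria, also went both ways. Pink1, the kinase that marks damaged mitochondria (chromosome 4, 138313409 to 138326307, minus strand, mm10), stood at 43.6 and 46.1 against 65.6 and 63.7 CPM. The libraries of each group lay close together and the groups were apart, a 1.44-fold lower level in CD63 high cells (log2 difference -0.53, SE 0.19, 95% interval -0.95 to -0.10). The edgeR adjusted p was 0.210, and 0.0590 to 0.639 over the 15 alternatives. Park7, the gene of DJ-1, stood at 281 and 303 against 249 and 212 CPM, without overlap (log2 fold change 0.34, SE 0.19, edgeR adjusted p 0.464). The outer membrane receptor genes Bnip3 and Bnip3l overlapped between groups. CD63 high replicate 2 held the most Bnip3 by far, at 94.8 CPM against 46.9 to 56.8 CPM in the other libraries. The genes of fusion with the lysosome were among the least expressed. Stx17, the SNARE of the finished autophagosome, stood at 8.01 and 4.73 against 7.35 and 7.52 CPM (-0.22, SE 0.34, edgeR adjusted p 0.847), and Epg5 was between 3.34 and 6.10 CPM.

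Libraries of the same group differed by exon length, though not in even steps. Among the 14 longest autophagy genes (6968 bases or more), CD63 high replicate 1 was above replicate 2 in 11 and CD63 low replicate 2 above replicate 1 in 11. Among the 14 of middle length the same held in 13 and 10 genes, and among the 14 shortest (3351 bases or less) in 3 and 2. The median difference between CD63 high replicates 1 and 2 was -0.12 in the shortest, 0.39 in the middle and 0.32 in the longest genes on the log2 scale, and between CD63 low replicates 0.25, -0.18 and -0.25. Across the 42 genes, which are not independent replicates and share the same 4 libraries, log2 length correlated with the replicate 1 minus replicate 2 difference at a Pearson r of 0.54 in CD63 high (Spearman's rho 0.56) and -0.53 in CD63 low cells (rho -0.57). Over all 13241 tested genes the Pearson r was 0.16 and -0.13 (rho 0.22 and -0.20). Atg2a and Pik3r4, long genes of the membrane and kinase groups, were among the most variable. Replicate 1 minus replicate 2 was 1.61 in CD63 high and -1.54 in CD63 low cells for Atg2a on the log2 scale, and Pik3r4 stood at 16.5 and 9.46 against 8.90 and 26.2 CPM. Within its group, CD63 high replicate 1 and CD63 low replicate 2 thus held more of most autophagy transcripts of middle and greater length. Fitting exon length as an offset left 0 of 42 genes called and a median log2 fold change of -0.14, with Wipi1 at 1.06 (edgeR adjusted p 0.0507), Uvrag at -0.74 (0.195) and Pink1 at -0.64 (0.0946).

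**Figure D5:**
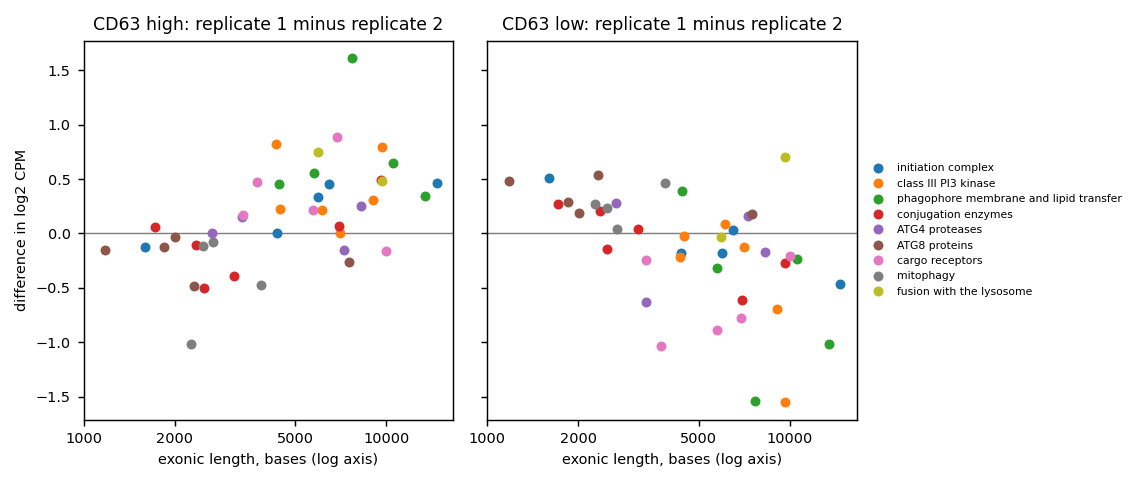
Difference in log2 CPM between replicates 1 and 2 (y axis) against exonic length (x axis, log scale) for the 42 autophagy genes, in CD63 high (left) and CD63 low cells (right), coloured by role. Most short genes lie below 0 on the left and above 0 on the right, and most longer ones the other way round (r 0.54 and -0.53).

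Other genes of the pathway, from a list of 85 names that covers nutrient sensing, transcription, regulators of the PI3 kinase complex, membrane supply, fusion and further receptors, were tested in the same fit. Of the 81 found by name, 80 were tested, and 0 passed in edgeR after adjustment, with 15 at an unadjusted p under 0.05 (4 higher and 11 lower; 18.8%, against 14.9% of all tested genes). DESeq2, which called more genes than edgeR over all genes too, called 1 higher (Vmp1) and 1 lower (Dapk1). Their median log2 fold change was -0.16, and 52 of 80 lay below 0 (65.0%, against 51.4% of all tested genes). Groups did not overlap for 47 of 80 (58.8%, against 46.0%). Of these, 13 were higher in CD63 high cells (16.2%, against 23.8%) and 34 lower (42.5%, against 22.2%), where the 42 autophagy genes above had 14.3% higher and 26.2% lower. The 5 with the smallest p were Dapk1, Vmp1, Vps39, Rubcn and Tollip. Dapk1, a kinase that acts on Beclin 1, stood at 8.94 and 11.3 against 18.2 and 22.9 CPM (log2 difference -1.02, SE 0.26, edgeR adjusted p 0.0692). Vmp1, a lipid scramblase of the endoplasmic reticulum needed for autophagosome growth, was the only one of the 5 with higher values, at 126 and 132 against 81.4 and 78.3 CPM (0.69, SE 0.19, edgeR adjusted p 0.0864). Vps39, a subunit of the HOPS tether of lysosome fusion, stood at 19.1 and 17.1 against 26.7 and 37.2 CPM (-0.82, SE 0.24, edgeR adjusted p 0.116). Rubcn, which encodes Rubicon, an inhibitor of the UVRAG form of the PI3 kinase complex, stood at 10.7 and 9.90 against 14.6 and 25.1 CPM (-0.95, SE 0.30, edgeR adjusted p 0.136). Tollip, a ubiquitin-binding adaptor, stood at 81.5 and 74.9 against 104 and 141 CPM (-0.65, SE 0.21, edgeR adjusted p 0.157). None of the 5 overlapped between the groups, which follows largely from choosing them by p. Over the 15 alternatives Dapk1 was called in 4, Vmp1, Vps39 and Rubcn in 3 each and Tollip in 2.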

How the data were processed

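The authors deposited raw counts per gene name for each library, made with featureCounts 1.6.2 per the file headers (paired-end fragments, no strand option, gene models from the mm10 3.0.0 reference for Cell Ranger). The aligner STAR 2.6.0c is named per the submitters' processing notes. Reads matching several places or exons of several genes are left out under these settings, which lowers genes that overlap others. No exonic base is shared for 31 of the 42 genes, and over 10% are shared for Becn1, Uvrag, Atg4d, Sqstm1 and Bnip3. RNA had been amplified with a low-input kit without molecular identifiers per the labels' protocols, so PCR copies may count as separate reads; depth was 29249270 to 35003307 counts per library. Exon lengths are other values of the deposited tables.

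In R 4.3.3, edgeR 4.0.16 was used. Low counts were removed by filterByExpr with a minimum of 10 and a total of 15, and the rest were scaled by TMM and fitted with glmQLFit and glmQLFTest on all 4 libraries with no covariate. Samples were grouped by title. Calls needed an adjusted p (Benjamini-Hochberg) under 0.05. Standard errors of log2 fold changes had a median of 0.297 over all tested genes. CPM values are TMM-scaled, except marker sums, which use total counts. Alternatives were other scalings, filters, DESeq2 1.42.0, limma-voom 3.58.1, a robust fit, replicate blocks, leaving out each library, and an exon length offset. The fit was tested on simulated data. Libraries of a group differed by more than sampling noise (chi-square per degree of freedom 37.3 and 73.7). The genes and lists were chosen with earlier results of these data known. Given in full were genes with an unadjusted p under 0.05, all ATG8 and receptor genes, the smallest p in each other role group and the 5 smallest among further pathway genes. The others given with values were chosen after these were seen.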

Additional observations from a re-analysis of the deposited data

How the results depend on the processing

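The number of autophagy genes called higher in CD63 high cells, 0 as reported, was 1 (Wipi1) with DESeq2 size factors, upper quartile scaling, no filter, a minimum count of 50 or DESeq2, and 0 to 1 when 1 library was left out. The number called lower was 1 with no filter and 0 to 4 when 1 library was left out (4 without CD63 low replicate 1, 0 without any other). Further pathway genes called were 2 higher and 3 lower with no filter, 1 higher and 1 lower with DESeq2, and 0 to 1 higher and 0 to 6 lower when 1 library was left out (6 without CD63 low replicate 1). Over all genes, 331 higher and 38 lower became 66 and 1 with library size only, 690 and 250 with no filter, 538 and 146 with DESeq2, and 378 to 512 higher and 56 to 257 lower when 1 library was left out. With the replicate number as a block, the test called 535 higher and 81 lower genes and 1 autophagy gene higher. Titles give no sign that numbers pair the libraries, whose replicate differences correlated between groups at -0.10 across tested genes and -0.61 across the 42 genes. The numbers in the names of the deposited files differ from the titles for CD63 low, and there CD63 high replicate 2 and CD63 low replicate 1 of the titles share a number. Crossed pairing, chosen after seeing the data, puts those libraries in 1 block and the remaining libraries, which share no number, in another. It called 607 higher and 335 lower genes, 1 autophagy gene higher and 2 lower, and 1 further pathway gene higher and 6 lower. Of 630 values of the 42 genes under alternatives 43 changed sign, in 21 genes. For the 25 genes given in full, 5 of them outside the 42, 332 of 375 values kept direction and side of the threshold, 30 passed it and 13 changed sign: Gabarapl1 (-0.033 with library size only, -0.0071 with no filter, -0.21 with the length offset, -0.073 to 0.092 without 1 library), Gabarapl2 (-0.016 with library size only, -0.15 with the length offset, -0.25 to 0.30 without 1 library), Map1lc3a (-0.13 with the length offset, -0.0048 to 0.46 without 1 library), Atg4c (-0.60 to 0.052 without 1 library) and Stx17 (-0.65 to 0.11). The cause of these changes was not tested. The length offset and the principal transcript lengths were chosen after seeing the data. Without length correction the mean share of Gabarap over the libraries was 50.2% in place of 56.5% and that of Map1lc3b 14.2% in place of 3.94%. Precision was limited by the 2 libraries per group (median standard error on the log2 scale 0.297 over all tested genes and 0.252 over the 42 genes). Every autophagy gene had at least 72 counts in each library.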

Other observations

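Further genes of the pathway with an unadjusted p under 0.05, chosen here after their values were seen, included a transcription factor and receptors of the endoplasmic reticulum and glycogen. Of the 80 further genes tested, 4 were higher and 11 lower in CD63 high cells at this threshold. The directions of the genes shown here therefore do not represent that set. Tfeb, which encodes a master activator of lysosome and autophagy genes, stood at 1.82 and 3.29 CPM in CD63 high replicates 1 and 2 and at 5.31 and 5.01 CPM in CD63 low replicates 1 and 2 (log2 fold change -1.02, SE 0.42, edgeR adjusted p 0.292). Retreg1, a receptor for the endoplasmic reticulum, stood at 19.2 and 13.2 against 11.5 and 8.73 CPM (0.68, SE 0.29, edgeR adjusted p 0.298). Ccpg1, another such receptor, had the opposite direction, at 2.97 and 1.91 against 4.94 and 4.54 CPM (-0.95, SE 0.42, edgeR adjusted p 0.316). Stbd1, a glycogen-binding protein proposed as a receptor for glycogen, stood at 7.72 and 4.77 against 3.43 and 1.72 CPM (1.29, SE 0.45, edgeR adjusted p 0.190). None of the 4 overlapped between groups, as held for 46.0% of all tested genes, and this follows largely from choosing them by p. None passed the threshold over all tested genes. Over the 15 alternatives Stbd1 was called in 2 (adjusted p 0.0263 to 0.568) and the other 3 in 0.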
